A study of Rattus norvegicus with 6 samples.

Results

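A set of 38 macrophage and myeloid cell genes was examined in 6 mammary tumors of female F344 rats, an inbred strain used in aging research. The 38 genes were listed by symbol, as genes known from these cells, with earlier results of these data known. They were all present among the 30562 rows of the count table, and were read as 3 classes: 26 pan-myeloid genes, 7 resident-like macrophage genes and 4 lipid-associated macrophage genes, with Csf1, a growth factor for macrophages, kept apart. Of the tumors, 3 (102, 107 and 116) came from older rats that were 21 to 23 months of age at carcinogen treatment, and 3 (157, 158 and 167) came from younger rats that were 4 months of age. Every rat carried a subcutaneous pellet with 50 mg of MPA (medroxyprogesterone acetate, a progestin released over 90 days) and received a single gavage of DMBA (a carcinogen that forms DNA adducts) at 65 mg/kg, so that no untreated tissue enters the comparison. Each tumor is 1 library. The study gives as many rats as tumors in each group, although the labels do not tie a tumor to a rat. The p-values measure the spread between these tumors. By the methods of the study, the younger group holds every carcinoma of the younger cohort, whereas the older tumors were those with enough tissue. The comparison asks whether the macrophage content or state of the tumor differs with the age of the host. By the same methods, the younger rats were virgin animals bought from Envigo, and the older rats came from colonies of the National Institute on Aging. Age and source of the animals thus cannot be told apart.

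Macrophages develop under the transcription factor PU.1, encoded by Spi1, and depend on the receptor encoded by Csf1r, which binds the growth factors CSF-1 and IL-34. Their receptors for antibody and lipid signal through small adaptors that carry ITAMs, tyrosine motifs recruiting the kinase Syk, and their NADPH oxidase makes superoxide in the phagosome. In mammary tissue, resident macrophages that express Mrc1, Cd163 and Folr2 sit along vessels, whereas macrophages that take up lipid and debris express Trem2, Gpnmb, Spp1 and Apoe. In bulk RNA, fewer cells of a type and less RNA per cell cannot be told apart.

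The libraries held 3394451 to 6383983 counts in named genes, and 13139 genes had enough counts to be tested. A level is given in CPM, the count relative to a library total adjusted by edgeR's TMM factors (0.861 to 1.127), and 3 counts correspond to between 0.53 and 1.03 CPM. Lengths of the counted transcripts were not used here, so levels are compared between tumors and not between genes. Tumor 102 stood farthest from the others (mean correlation 0.829 over log2 CPM of the genes tested, against 0.867 to 0.898). The epithelial markers Epcam (300 to 499 CPM) and Krt8 (100 to 337 CPM) were abundant in every tumor. Of the myeloid genes, Marco, a scavenger receptor of alveolar and splenic macrophages, had 0 counts in all 6 tumors, which allows up to 1.03 CPM in the shallowest library. Such floors cover counting error only.

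Most myeloid transcripts lay higher in tumors from older rats, but none passed the adjusted threshold in edgeR, whereas 7 did in DESeq2, all higher. Of the 37 genes with enough counts, 36 had a positive log2 fold change (older against younger) and only Cd14 had a negative one. No gene passed an adjusted p of 0.05 in edgeR's quasi-likelihood test, neither among the 37 nor among all genes tested (0% of 13139), and the lowest adjusted p of a myeloid gene was 0.235 (Ncf1). At an unadjusted p under 0.05, 24 of the 37 were higher in older tumors, against 5.3% of all genes tested, and 0 were lower, against 3.29%. In 20 of the 37 every older tumor lay above every younger one, against 6.51% of all genes, and in 0 every older tumor lay below, against 5.58%. Because the list was drawn up with earlier results known, these shares describe it and are no independent evidence of its direction. The median log2 fold change was 1.34 over the 37 genes and -0.004 over all genes tested. Of the 37, 8 reached the filter on low counts in all older but not all younger tumors. These were Fcgr1a, Fcgr2b, Ncf4, Msr1, Cd163, Clec10a, Ms4a7 and Trem2. All but Clec10a were among the 24, and all but Clec10a and Cd163 were among the 20. With all genes that had at least 1 count the number at an unadjusted p under 0.05 was 25, against 5.01% of all genes. When single tumors were omitted, this number lay between 17 (without tumor 107) and 24, against 3.83% to 6.63% of all genes.

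**Figure D1:**
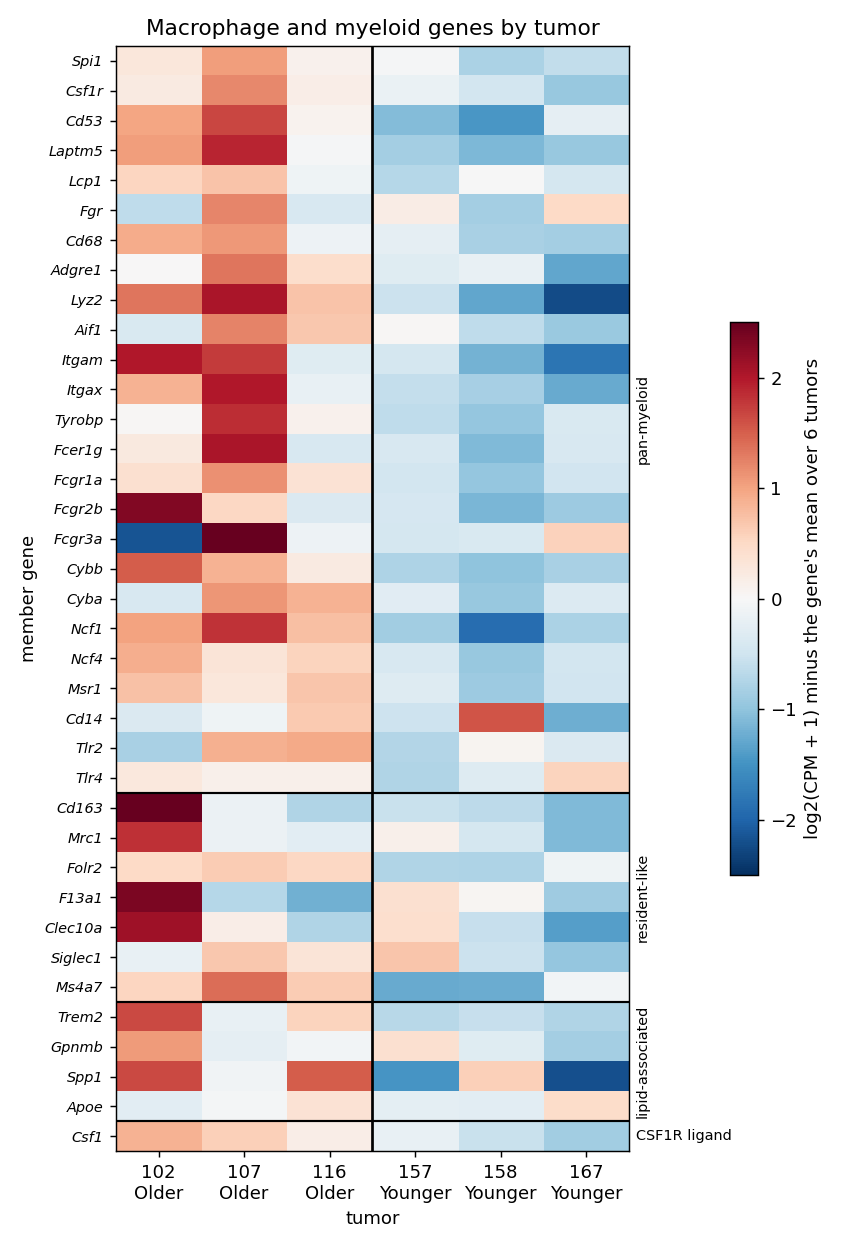
Heat map of log2(CPM + 1) for the 37 tested myeloid genes (rows, by class) in the 6 tumors (columns), each gene centred on its mean, with colors saturated at the ends of the scale. Tumor 107 has the highest level in 19 genes and tumor 102 in 13, whereas tumors 158 and 167 hold the lowest level in 14 and 16.

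The plot of fitted differences shows how far the classes shared this direction. Among the 25 pan-myeloid genes tested, the median log2 fold change was 1.35, with 19 genes higher at an unadjusted p under 0.05 and 16 without overlap between the age groups (5.3% and 6.51% of all genes tested). Among the 7 resident-like genes it was 1.23, with 3 and 2 genes, to be read against the same shares. Among the 4 lipid-associated genes it was 1.16, with 1 gene each (Trem2). Trem2, and Cd163 and Ms4a7 among the counted resident-like genes, reached the filter on low counts in all older but not all younger tumors. The medians lay close to each other, but they rested on different tumors: without tumor 107 the pan-myeloid median was 0.91, and without tumor 102 the resident-like median was 0.41. The lipid-associated median was 0.66 without tumor 102.

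**Figure D2:**
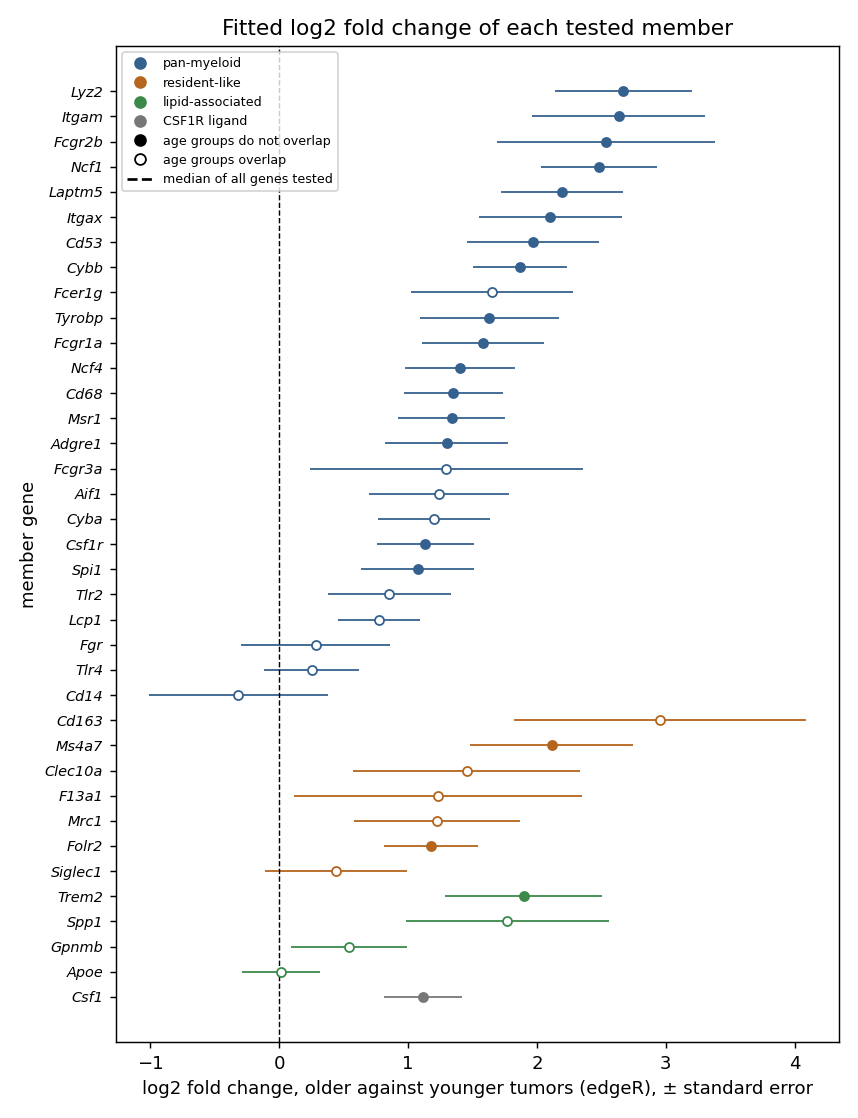
Log2 fold change of each tested gene, older against younger tumors, with its standard error from edgeR's fit (x axis); filled points are genes whose age groups do not overlap and the dashed line is the median of all genes tested. Lyz2 (2.67) and Itgam (2.63) lead the pan-myeloid genes and Cd163 (2.95) has the highest value of all, with the widest error.

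Among the genes of myeloid identity and signalling, Spi1 stood at 11.4, 20.0 and 10 CPM in older tumors 102, 107 and 116 and at 9.02, 4.88 and 5.68 CPM in younger tumors 157, 158 and 167. The groups did not overlap, but the lowest older value was close to the highest younger one (edgeR log2 fold change 1.08 with SE 0.44, adjusted p = 0.551). Csf1r, the receptor on which macrophage survival depends, was at 48.5, 96.8 and 46.3 CPM in older tumors and at 36.6, 29.7 and 21.0 CPM in younger ones. Older tumors were on average at 63.9 ± 28.6 CPM and younger tumors at 29.1 ± 7.82 CPM (SD, n = 3 each), a 2.19-fold difference. Laptm5, a lysosomal membrane protein of blood cells, was at 90.5, 164 and 42.5 CPM in older tumors against 23.5, 19.4 and 22.0 CPM in younger ones. The younger tumors lay within a narrow range, below every older tumor (edgeR log2 fold change 2.19 with SE 0.47, adjusted p = 0.271). Cd53, a tetraspanin of leukocytes, showed the same order of groups, from 25.2 to 77.3 CPM in older and from 7.96 to 20.0 CPM in younger tumors. Lcp1, an actin-bundling protein of leukocytes that carcinoma cells can also express, overlapped between groups (250 to 443 against 165 to 269 CPM), with tumor 158 the highest of the younger tumors. Fgr, a Src family kinase of myeloid cells, was at 21.3, 80.0 and 25.2 CPM against 38.4, 18.3 and 47.9 CPM, so that tumor 107 alone stood above the younger tumors. Without tumor 107 its log2 fold change was -0.57.

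The surface and granule markers had a median log2 fold change of 1.73, with 5 of 6 separated by age group (6.51% of all genes tested). Lyz2, the lysozyme of macrophages and neutrophils, was at 514, 837 and 333 CPM in older tumors and at 140, 81.8 and 42.2 CPM in younger ones. The older mean was 561 ± 255 CPM against 88.0 ± 49.2 CPM (SD, n = 3 each), a 6.37-fold difference (edgeR log2 fold change 2.67 with SE 0.53, adjusted p = 0.262). The related row Lyc2, a near copy with which reads could be shared, held 39 counts over all tumors. Of these, 29 lay in tumor 167 (7.16 CPM, against 0.801 CPM or less elsewhere). Itgam, the alpha chain of complement receptor 3, was at 66.4, 55.5 and 12.6 CPM in older and 11.3, 6.33 and 3.70 CPM in younger tumors. Here tumors 102 and 107 were high, whereas tumor 116 lay just above tumor 157. Itgax, the integrin chain of dendritic cells and many tissue macrophages, was at 51.0, 114 and 24.2 CPM against 17.9, 15.2 and 10.9 CPM, and its log2 fold change of 2.10 was 1.34 without tumor 107. Cd68, a lysosomal glycoprotein used to stain macrophages, was at 73.3, 82.3 and 34.8 CPM against 32.5, 21.2 and 20.7 CPM, a 2.55-fold difference. Adgre1, which encodes the F4/80 antigen, ranged from 16.2 to 42 CPM in older and from 5.92 to 13.9 CPM in younger tumors. Aif1, an actin-binding protein of macrophages, overlapped, because tumor 102 (5.85 CPM) lay below tumor 157 (8.13 CPM).

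Both ITAM adaptors were highest in tumor 107. Tyrobp, the adaptor of Trem2 and many other receptors, was at 24.1, 87.1 and 25.4 CPM in older and 14.9, 11.6 and 17.8 CPM in younger tumors. Without tumor 107 its log2 fold change of 1.63 was 0.75. Fcer1g, the gamma chain shared by Fc receptors of macrophages and mast cells, was at 45.4, 159 and 28.6 CPM against 28.6, 17.2 and 28.4 CPM, so that tumor 116 lay level with tumor 157. Its log2 fold change of 1.65 was 0.58 without tumor 107. Mast cell transcripts were also present in tumors 107 and 167 (Cpa3, a mast cell protease, at 55.2 and 75.8 CPM, and 0.601 to 15.6 CPM elsewhere), and their part in the Fcer1g level was not tested.

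The Fc gamma receptors, which bind IgG, diverged between the older tumors. Fcgr1a, the high-affinity receptor, was at 6.20, 11.1 and 6.01 CPM in older tumors against 3.01, 1.81 and 2.96 CPM in younger ones, without overlap (edgeR log2 fold change 1.58 with SE 0.47, adjusted p = 0.368). Fcgr2b, the inhibitory receptor, was at 22.0, 5.68 and 2.60 CPM against 2.48, 1.09 and 1.48 CPM, so tumor 102 stood far above the rest, and the log2 fold change of 2.54 was 1.27 without it. Fcgr3a went the other way within the older group, at 1.38, 60.2 and 8.81 CPM, against 6.89, 7.24 and 14.8 CPM in younger tumors. Tumor 102 had 4 counts of Fcgr3a and 64 of Fcgr2b, whereas tumor 107 had 265 and 25. In the RefSeq list of assembly GRCr8 the name Fcgr3a is also a synonym of Fcgr2a, and reads of this family can be split between near copies, so the identity of the Fcgr3a row is uncertain.

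In the phagocyte NADPH oxidase 3 of 4 genes separated the age groups (6.51% of all genes tested). Cybb, its catalytic subunit, was at 108, 68.4 and 43.3 CPM in older tumors and at 21.4, 17.9 and 20.7 CPM in younger ones (edgeR log2 fold change 1.87 with SE 0.36, adjusted p = 0.241). Every older tumor held more than any younger tumor, and the younger tumors hardly differed. Ncf1, the organizer subunit p47phox, was at 45.8, 81.1 and 38.2 CPM against 11.8, 5.25 and 12.6 CPM, a 5.57-fold difference (edgeR log2 fold change 2.48 with SE 0.45, adjusted p = 0.235). Ncf4, the subunit p40phox, ranged from 7.05 to 11 CPM in older and from 2.35 to 3.89 CPM in younger tumors. Cyba, which pairs with Cybb but is also expressed outside leukocytes, was at 17.2, 50.0 and 42.5 CPM against 18.7, 11.4 and 17.8 CPM, with tumor 102 inside the younger range. All 4 were higher at an unadjusted p under 0.05 (5.3% of all genes tested), and the log2 fold change of each stayed at or above 0.91 when any single tumor was left out. Among further genes that act with the complex, Rac2, its GTPase, and Hvcn1, its proton channel, were higher at an unadjusted p under 0.05 (log2 fold changes 1.77 and 0.80). Rac2 was high in tumor 107 alone (78.2 CPM), with 13.1 and 11.8 CPM in tumors 102 and 116 against 6.69 to 12.1 CPM in younger tumors.

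Receptors for microbial products did not share this separation. Tlr2 was at 20.0, 66.6 and 69.3 CPM in older tumors and at 21.2, 37.6 and 27.6 CPM in younger ones, so that tumor 102 lay below all younger tumors. Tlr4, the lipopolysaccharide receptor, was at 34.8, 31.6 and 31.8 CPM against 16.8, 23 and 43.0 CPM, or 0.25 on the log2 scale (SE 0.37, adjusted p = 0.928 in edgeR). Cd14, its coreceptor, which mammary epithelium also expresses, was at 110, 131 and 224 CPM against 98.7, 421 and 60.0 CPM. Tumor 158 alone made the younger mean the higher one, and without it the log2 fold change of -0.32 was 0.97. Msr1, a scavenger receptor for modified lipoproteins, was the exception, at 9.98, 7.05 and 9.61 CPM against 4.24, 2.53 and 3.70 CPM (2.53-fold, without overlap).

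The promoters of the 6 genes with the lowest p-values, chosen with the values known, are shown because these genes lay higher in older tumors together. Each window runs from 250 bases before to 50 after the transcription start and was taken from RefSeq (assembly GRCr8, which is not the build of the counts). Capitals mark GAGGAA, letters that PU.1 is known to bind, on either strand (TTCCTC on the other). The sequences run from 5′ to 3′ on the strand of the gene.
Ncf1 (chr12:28121635-28121934, plus strand): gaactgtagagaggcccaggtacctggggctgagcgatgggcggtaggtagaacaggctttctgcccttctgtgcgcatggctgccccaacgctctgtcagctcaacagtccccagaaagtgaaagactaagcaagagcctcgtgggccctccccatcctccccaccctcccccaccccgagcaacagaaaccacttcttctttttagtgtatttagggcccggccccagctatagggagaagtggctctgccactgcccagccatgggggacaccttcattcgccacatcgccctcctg
Cybb (chrX:16065016-16065315, minus strand): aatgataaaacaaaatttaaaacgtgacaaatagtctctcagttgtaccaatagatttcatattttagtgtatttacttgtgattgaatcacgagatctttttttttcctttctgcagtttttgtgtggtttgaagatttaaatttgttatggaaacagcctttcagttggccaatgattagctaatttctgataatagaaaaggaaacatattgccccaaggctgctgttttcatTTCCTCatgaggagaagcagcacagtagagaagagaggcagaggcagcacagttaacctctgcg
Lyz2 (chr7:54797962-54798261, minus strand): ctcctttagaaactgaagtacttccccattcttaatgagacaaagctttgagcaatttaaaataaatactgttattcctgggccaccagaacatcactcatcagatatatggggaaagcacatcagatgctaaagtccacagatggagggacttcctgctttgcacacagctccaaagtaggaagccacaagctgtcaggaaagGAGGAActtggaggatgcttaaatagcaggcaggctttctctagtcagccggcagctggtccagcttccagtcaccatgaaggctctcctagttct
Laptm5 (chr5:148371630-148371929, plus strand): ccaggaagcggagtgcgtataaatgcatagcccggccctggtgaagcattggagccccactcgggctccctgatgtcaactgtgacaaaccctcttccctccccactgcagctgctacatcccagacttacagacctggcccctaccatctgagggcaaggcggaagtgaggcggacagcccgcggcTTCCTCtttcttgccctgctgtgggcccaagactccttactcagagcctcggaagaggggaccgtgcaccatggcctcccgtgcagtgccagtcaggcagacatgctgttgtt
Itgam (chr1:192089342-192089641, plus strand): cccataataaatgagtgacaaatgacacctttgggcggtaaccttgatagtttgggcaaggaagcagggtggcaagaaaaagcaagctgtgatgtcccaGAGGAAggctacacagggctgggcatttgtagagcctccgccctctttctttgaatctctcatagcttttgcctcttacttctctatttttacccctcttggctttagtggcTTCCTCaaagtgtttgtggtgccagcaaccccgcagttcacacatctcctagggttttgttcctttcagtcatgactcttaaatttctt
Cd53 (chr2:197087847-197088146, minus strand): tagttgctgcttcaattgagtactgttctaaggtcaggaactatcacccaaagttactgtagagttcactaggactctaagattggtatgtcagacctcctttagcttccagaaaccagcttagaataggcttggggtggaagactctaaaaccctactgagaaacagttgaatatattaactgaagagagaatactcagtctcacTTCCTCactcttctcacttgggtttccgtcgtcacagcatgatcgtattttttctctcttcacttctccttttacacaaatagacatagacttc

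The letters occurred in 5 of these 6 windows, at position -14 relative to the start in Cybb, -46 in Lyz2, -63 in Laptm5, -44 in Cd53 and at -151 and -39 in Itgam, but not in Ncf1. Of 25 members with a single promoter window in the table, 16 held GAGGAA on either strand, against 27.6% of all 33469 windows. The longer GAGGAAGT, which contains GAGGAA, occurred in 3 of the 25 (Cd53, F13a1 and Fcgr3a) and in 2.42% of all windows. TGANTCA, the letters of AP-1, occurred in 5 of the 25 and in 7.33% of all windows, and TCANGTG, an E-box bound by MITF and related factors, in 2 of the 25 (Gpnmb and Marco) and in 13.4%. These matches are a description of letters in a short window, with both strands searched, and 12 members had no window.

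Of the 7 resident-like genes, Folr2 and Ms4a7 separated the age groups, and Cd163, Mrc1, Clec10a and F13a1 were highest in tumor 102. Folr2, a folate receptor of resident macrophages, was at 14.1, 15.5 and 14.2 CPM in older tumors and at 5.30, 5.25 and 8.89 CPM in younger ones. The older tumors were nearly equal, at 14.6 ± 0.746 CPM against 6.48 ± 2.09 CPM (SD, n = 3 each), a 2.26-fold difference (edgeR log2 fold change 1.18 with SE 0.36, adjusted p = 0.388). Ms4a7, a four-span membrane protein of macrophages, was at 6.20, 12 and 6.61 CPM against 1.06, 1.09 and 3.70 CPM, also without overlap (4.34-fold). Its log2 fold change of 2.12 was 2.92 without tumor 167. Cd163, the scavenger receptor for hemoglobin and haptoglobin, was at 59.6, 4.77 and 2.80 CPM against 3.36, 3.08 and 1.97 CPM. The fitted difference of 2.95 (log2, SE 1.13, adjusted p = 0.511 in edgeR) was 0.41 without tumor 102. Mrc1, the mannose receptor CD206, was at 77.5, 18.9 and 17.4 CPM against 23.3, 15.4 and 9.38 CPM, so that tumors 107 and 116 lay within the younger range, and its log2 fold change of 1.23 was 0.17 without tumor 102. Clec10a, a lectin for galactose-type sugars, was at 32.4, 7.73 and 3.60 CPM against 9.37, 4.16 and 1.97 CPM, and its log2 fold change of 1.45 was 0.11 without that tumor. F13a1, a transglutaminase of macrophages and platelets, was at 22.7, 1.82 and 1 CPM against 5.13, 3.80 and 1.48 CPM, and changed from 1.23 to -1.32 without tumor 102. Siglec1, sialoadhesin, did neither and was the only one with its highest value in a younger tumor, at 7.92, 15.2 and 11.6 CPM against 15.4, 5.97 and 4.20 CPM.

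Of 11 further resident macrophage genes, 8 had enough counts, 7 with a positive and 1 with a negative log2 fold change. At an unadjusted p under 0.05, 1 was higher, against 5.3% of all genes tested. This was Igf1, a growth factor that fibroblasts also make (edgeR log2 fold change 2.22 with SE 0.58, adjusted p = 0.33). The complement genes C1qa, C1qb and C1qc, which macrophages make together, had log2 fold changes of 1.01, 0.98 and 0.86, with tumor 102 below the highest younger tumor in each. C1qa was at 19.3, 72.7 and 50.9 CPM in older and 26.0, 21.2 and 24.2 CPM in younger tumors. Mertk had the negative log2 fold change (-0.37), at 154, 41.4 and 23.6 CPM in older and 88, 36 and 157 CPM in younger tumors. Selenop had a log2 fold change of 0.28. Timd4 and Vsig4, markers of long-lived resident macrophages in other tissues, were at 0.682 CPM or less in every tumor. Lyve1, which resident macrophages share with lymphatic endothelium, was at 10.3 CPM in tumor 102 and at 2.12 CPM or less elsewhere.

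The log2 fold changes of the lipid-associated genes ranged from 0.02 to 1.90. Trem2, the lipid receptor that signals through Tyrobp, was at 14.8, 3.41 and 6.41 CPM in older tumors and at 2.12, 2.35 and 1.97 CPM in younger ones, from 8 to 43 counts a tumor. The groups did not overlap, and the fold was 3.72 (edgeR log2 fold change 1.90 with SE 0.61, adjusted p = 0.41). Without tumor 102 the log2 fold change of Trem2 was 1.18. Spp1, osteopontin, which mammary epithelium also secretes, was at 123, 36.1 and 112 CPM against 13.1, 58.3 and 7.65 CPM, and tumor 107 lay below tumor 158. Gpnmb, a lysosomal glycoprotein, was at 298, 122 and 136 CPM against 188, 116 and 78.3 CPM, and its log2 fold change of 0.54 was 0.01 without tumor 102. Apoe, a lipid carrier that many cell types make, was at 166, 192 and 257 CPM against 168, 167 and 273 CPM, or 0.02 on the log2 scale (SE 0.30, adjusted p = 0.994 in edgeR). Apoe thus lay at similar levels in both groups, with the fitted difference within its error.

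Of 16 further genes of lipid handling and lysosomes in macrophages, 15 were tested, 8 with a positive and 7 with a negative log2 fold change, and the median was 0.04. At an unadjusted p under 0.05, 5 were higher, against 5.3% of all genes tested, and 0 were lower, against 3.29%. Lipa, the lysosomal acid lipase, was at 182, 133 and 146 CPM in older and 38.7, 48.1 and 28.9 CPM in younger tumors (edgeR log2 fold change 1.99 with SE 0.27, adjusted p = 0.179). The age groups were far apart, and the spread within each was small. Lpl, lipoprotein lipase (log2 fold change 1.77), Abca1, a cholesterol exporter (1.52), and Mmp12, the macrophage elastase (0.90), were also higher, as was Ctsk, a cathepsin (3.23), which was at 141 CPM in tumor 102 and between 3.95 and 14 CPM in the other tumors. The lysosomal proteases Ctsb and Ctsd were highest in tumor 158 (1220 and 840 CPM), a younger tumor, with log2 fold changes of -0.39 and -0.95. All of these are also expressed outside macrophages.

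Csf1 itself, which macrophages, fibroblasts and epithelium can make, was at 78.8, 64.8 and 47.7 CPM in older tumors and at 37.0, 28.4 and 22.7 CPM in younger ones. The groups did not overlap (63.8 ± 15.6 against 29.4 ± 7.17 CPM, SD, n = 3 each; edgeR log2 fold change 1.12 with SE 0.30, adjusted p = 0.342), and the value stayed between 0.93 and 1.31 when any single tumor was left out. Il34, the other ligand of the receptor, was at 16.2, 2.95 and 15.6 CPM against 3.54, 6.15 and 3.21 CPM, with tumor 107 the lowest of all. Csf2, which encodes GM-CSF, had 2 counts in tumor 157 and none elsewhere. Of 8 genes of the colony-stimulating factor system beside Csf1, 7 were in the table and 4 were tested. All 4 had a positive log2 fold change, and 1 was higher at an unadjusted p under 0.05, against 5.3% of all genes tested. This was Csf2rb, the shared beta chain of cytokine receptors (log2 fold change 1.35).

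To compare the classes within a tumor, each resident-like and lipid-associated gene was set against the mean log2 CPM of the 25 pan-myeloid genes of the same tumor. That mean was 5.03, 5.84 and 4.82 in older tumors 102, 107 and 116 and 4.11, 3.80 and 3.90 in younger tumors 157, 158 and 167. On this scale the resident-like genes together lay at -0.55 in tumor 102, -2.64 in 107 and -2.15 in 116, and at -1.35, -1.53 and -1.86 in the younger tumors. On their mean, tumor 102 thus held more of them for its pan-myeloid level than any other tumor, and tumors 107 and 116 held less. Single genes did not all follow. Siglec1 was lowest in tumor 102 (-1.971), and Folr2 in tumor 102 (-1.17) lay below tumors 116 (-0.944) and 167 (-0.676). Ms4a7 lay higher in tumors 107 and 116 (-2.201 and -2.001) than in tumors 157 and 158 (-3.527 and -3.195). The lipid-associated genes together lay at 1.59, -0.43 and 1.35 in older and at 0.91, 1.60 and 0.77 in younger tumors, with tumor 107 apart at the low end. Among single genes, only Apoe separated the age groups on this scale, at 2.34, 1.75 and 3.19 in older tumors and 3.29, 3.59 and 4.20 in younger ones, a difference of -1.26. The subtracted pan-myeloid mean was higher in every older tumor. A gene at similar CPM in both groups, as Apoe was, therefore lies lower in older tumors on this scale, and its separation is no separate result about Apoe. These are differences of levels within a tumor and were given no test.

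**Figure D3:**
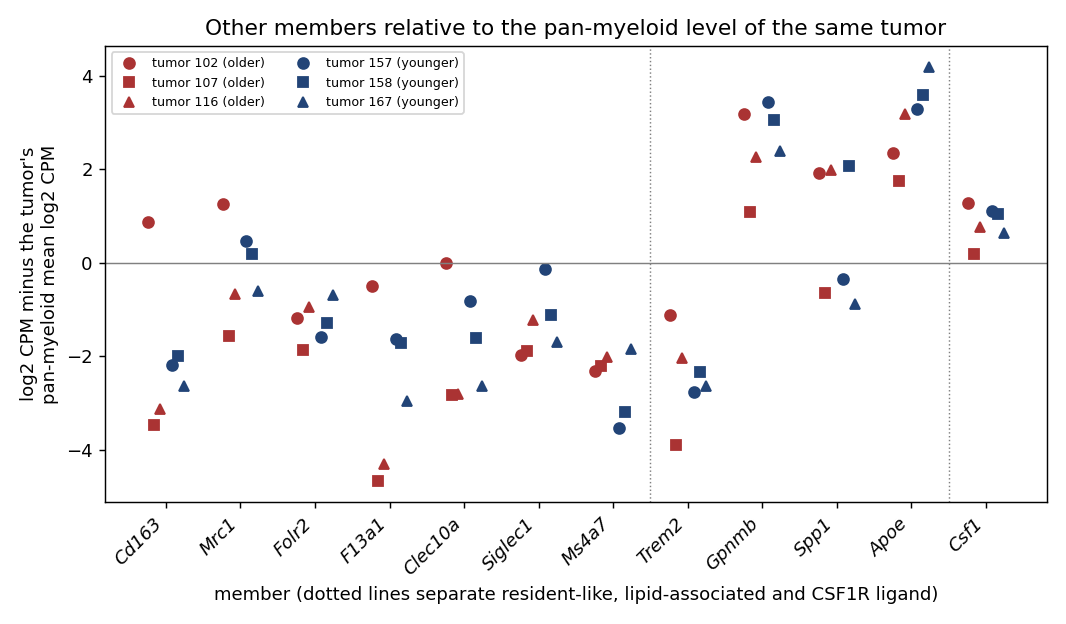
Log2 CPM of each resident-like gene, lipid-associated gene and Csf1 minus the mean log2 CPM of the pan-myeloid genes of the same tumor (y axis), older tumors in red and younger in blue. Cd163, Mrc1, F13a1 and Clec10a lie highest in tumor 102. Apoe, at similar CPM in both groups, lies lower in all older tumors because the subtracted mean is higher there.

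Among the lists of genes that act with the members, the sign was shared in some and mixed in others. Of 12 genes of ITAM signalling, 10 were tested, all with a positive log2 fold change (median 0.77). At an unadjusted p under 0.05, 3 were higher, against 5.3% of all genes tested. Clec7a, dectin-1, the receptor for fungal glucan, was at 51.0, 32.3 and 12.6 CPM in older and 3.54, 3.80 and 4.94 CPM in younger tumors (edgeR log2 fold change 2.96 with SE 0.54, adjusted p = 0.235). Vav1, an exchange factor, had a log2 fold change of 1.57, whereas Syk overlapped between the groups (14.2 to 51.6 against 9.23 to 21.7 CPM). Of 11 myeloid transcription factors, 8 had a positive and 3 a negative value (median 0.47). At an unadjusted p under 0.05, 2 were higher, against 5.3% of all genes tested. These were Irf8 and Irf5, interferon regulatory factors of macrophages and dendritic cells (2.08 and 1.52). Irf8 was at 20.3, 106 and 23.2 CPM against 14.7, 9.23 and 11.4 CPM.

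Of 15 monocyte and neutrophil genes only 5 had enough counts, with a median log2 fold change of 0.29. None had an unadjusted p under 0.05, where 5.3% of all genes tested were higher and 3.29% lower. Vcan, a proteoglycan that stromal and tumor cells also make, was at 49.9 to 334 CPM and overlapped between the groups. The neutrophil genes S100a8, S100a9, Mpo, Elane and Camp were at 1.94 CPM or less in every tumor. Mmp8 (1.40 to 2.05 against 0 to 0.724 CPM) and Ngp (0.801 to 2.27 against 0 to 0.53 CPM) lay higher in every older tumor but had too few counts to be tested, and Cxcr2 reached 6.87 CPM in tumor 158 and was at 1.24 CPM or less elsewhere. Ccr2, the receptor of recruited monocytes, was at 8.61, 5.45 and 7.21 CPM in older and 5.30, 3.08 and 1.97 CPM in younger tumors (edgeR log2 fold change 1.02 with SE 0.49, adjusted p = 0.657). Retnlg, a resistin-like gene of neutrophils and other myeloid cells, was at 41.0 CPM in tumor 102 and at 1.14 CPM or less elsewhere.

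Other cell types also varied with the groups or with single tumors. Ptprc, which encodes the leukocyte antigen CD45 and was looked at after the other values were known, was at 212, 354 and 101 CPM in older and 58.7, 30.8 and 51.1 CPM in younger tumors (edgeR log2 fold change 2.25 with SE 0.48, adjusted p = 0.271). Of 7 T cell markers, 3 were tested and 2 were higher at an unadjusted p under 0.05, against 5.3% of all genes tested. The summed level of the 7 was 19.3 to 101 CPM in older and 7.42 to 12.1 CPM in younger tumors, with Cd3d at 1.40 CPM or less. The upper end was mostly Cd8a, which other cells can also express (74.6 of 101 CPM in tumor 107), whereas Cd3d, Cd3e, Cd3g and Cd5 were higher in tumor 116 than in tumor 107 and Cd247 and Cd2 were lower (4 against 14.5 CPM and 3.60 against 5.45 CPM). The 5 epithelial markers in the table all had negative values, and their summed level was 1180 to 1510 CPM in older and 1880 to 2470 CPM in younger tumors. Of 6 B cell markers only Cd22 was tested (log2 fold change 1.43), and Ms4a1 and Cd79b had no counts. The part of these cell types in the myeloid values was not tested.

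Tumor 102, in which Cd163, Mrc1, Clec10a and F13a1 were highest, also had the highest summed level of fibroblast (983 CPM, against 100 to 802 CPM elsewhere), endothelial (402 against 69.4 to 328 CPM) and adipocyte markers (176 against 6.17 to 33.6 CPM). Single markers did not all follow these sums. Pecam1, which leukocytes also express, and Tek were highest in tumor 102, but Cdh5 was highest in tumor 158, Kdr in 107 and Vwf in 157. Of the fibroblast markers, Col1a1 was highest in tumor 157 and Lum in 116, and of the adipocyte markers Fabp4 made up 135 of the 176 CPM and Lep was highest in tumor 107. Tumor 107, in which the pan-myeloid genes were highest, had a fibroblast level of 103 CPM, close to the 100 CPM of tumor 167, and the highest Cd8a level. Of 5 platelet markers, which bear on F13a1, only Gp1ba was tested (log2 fold change 1.32). Gp1ba and Itga2b were highest in tumor 102 (13.8 and 6.20 CPM, against 3.95 to 12.5 and 1.09 to 2.73 CPM elsewhere), as F13a1 was, whereas Ppbp had 0 counts and Pf4 and Gp9 were at 0.689 CPM or less. The part of platelets in the F13a1 level was not tested. The red cell genes Hba-a1 and Hbb, which mark blood in the sample, were lower in older tumors (log2 fold changes -1.15 and -0.92). Both had an unadjusted p under 0.05, where 3.29% of all genes tested were lower, and Alas2 had a log2 fold change of -0.57. Mast cell markers overlapped between groups except Kit, which mammary epithelium also expresses (log2 fold change 1.81, at an unadjusted p under 0.05).

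**Figure D4:**
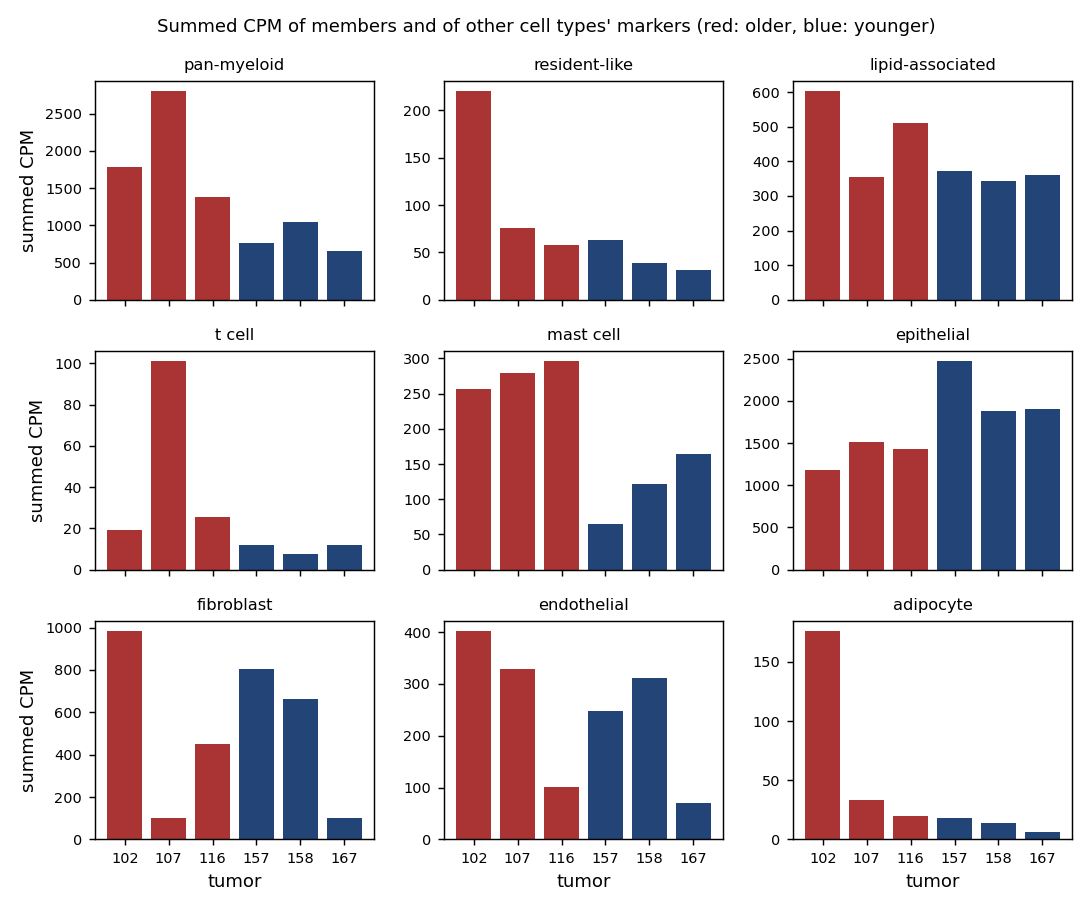
Summed CPM of the 3 myeloid classes and of marker lists of 6 other cell types (y axes, from 0, each on its own scale) in the 6 tumors, older in red and younger in blue. Pan-myeloid genes are highest in tumor 107 (2800 CPM), resident-like genes in tumor 102 (220 CPM), and most of the mast cell sum is Kit except in tumor 167.

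The choice of test decided which genes passed the threshold. With DESeq2, which the study's methods name without settings, 7 of the 37 genes passed an adjusted p of 0.05, all higher in older tumors, against 1.67% of the genes tested. They were Ncf1 (adjusted p = 0.00011), Lyz2 (0.000125), Cybb (0.00131), Laptm5 (0.00208), Itgam (0.00741), Itgax (0.0185) and Cd53 (0.0188), all pan-myeloid. DESeq2 gave no adjusted p for Cd163. With edgeR and with limma-voom the same 7 genes did not pass, and 0 genes of the whole table did.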

How the data were processed

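RNA from 6 rat mammary tumors was depleted of ribosomal RNA and sequenced (2 groups of 3; the labels give reads of 100 bases and polyA RNA, which differs from the protocol). The authors trimmed reads with Trimmomatic 0.38, aligned them with STAR 2.7.9a, marked duplicates with Picard 2.18.12 and deposited raw read counts per gene from HTSeq 0.13.5; the submitters' processing notes name build mRatBN7.2, and the annotation, strand setting and use of marked duplicates are not given in the sources used here. Reads of overlapping genes on opposite strands thus may not be told apart.

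Rows without a gene name (4367, from 2.17% to 3.64% of the counts of a tumor) were left out of library sizes and tests. Genes were kept by filterByExpr and tested in R 4.3.3 with edgeR 4.0.16 (TMM, quasi-likelihood test, Benjamini-Hochberg adjustment over all genes tested, threshold 0.05), without covariates. Standard errors (SE) follow from the fold change and its F statistic. A prior count of 2 entered log2 CPM. Alternatives were DESeq2 1.42.0 (its size factors and its Wald test), limma-voom 3.58.1, library totals, 2 other filters, a prior count of 0.5, leaving out the 10 most abundant genes or each tumor, and, added after seeing the data, keeping rows without a name. The test was checked on simulated counts, and the outcome of that check is not given here.

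Members and gene lists were chosen with earlier results of these data known. Every member could be named, and of the other lists genes with an unadjusted p under 0.05 or the highest level; Ptprc, Lyc2 and other genes given without such a p were picked with values known. All 38 members are symbols in RefSeq's list for GRCr8, from which no gene coordinates were used. Promoter windows were taken from RefSeq, 25 members having a single window and 1 having several. Some genes of the other lists are not reported here.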

Additional observations from a re-analysis of the deposited data

How the results depend on the processing

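No paired analysis was possible because the age groups share no replicate numbers. The count of genes past the threshold was 0 with edgeR, 0 with limma-voom, other scalings and filters, and 0 without any single tumor, but 7 with DESeq2's Wald test; the cause was not tested. Counts at an unadjusted p under 0.05 (24) and of genes without overlap (20) stayed within 1.5 times. Over these settings the share of all genes tested that were higher at such a p was 3.83% to 6.63%. The share in which every older tumor lay above every younger one was 6.51% in the main fit. With 1 tumor left out it was 9.54% to 13.9%, so a similar count stands against a larger share there. The median log2 fold change of the lipid-associated genes was 0.53 with at least 10 counts in every tumor, where Trem2 is not tested. With one tumor left out, the pan-myeloid median ranged from 0.912 to 1.641, the resident-like median from 0.41 to 1.77 and the lipid-associated median from 0.662 to 1.446, the lowest values being those without tumor 107 (pan-myeloid) and 102. Of the 37 genes, 31 kept their sign under every setting run and 6 did not. Apoe was -0.045 with library totals and -0.004 with all genes of at least 1 count, Cd14 0.126 and F13a1 -0.159 with limma-voom. Across the fits without one tumor, F13a1 ranged from -1.316 to 1.77, Fgr from -0.574 to 0.594, Fcgr3a from -0.864 to 1.838, Apoe from -0.185 to 0.286, Tlr4 from -0.015 to 0.712 and Cd14 from -0.75 to 0.974. The sign changed for F13a1 without tumor 102 (-1.316), Fgr (-0.574) and Fcgr3a (-0.864) without tumor 107, Fgr (-0.024), Cd14 (0.974) and Apoe (-0.099) without tumor 158, Apoe (-0.107) and Tlr4 (-0.015) without tumor 157 and Apoe (-0.185) without tumor 116. Depth limits Trem2, Fcgr2b, Fcgr3a, Cd163, Clec10a, F13a1 and Ms4a7, which have fewer than 10 counts in at least one tumor.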

Other observations

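Genes of dendritic cells, which share Itgax, Irf8 and Spi1 with macrophages, could be read for 4 of 8 listed genes, all with a positive log2 fold change. Batf3, a transcription factor of cross-presenting dendritic cells, was at 7.92, 11.1 and 4.61 CPM in older tumors 102, 107 and 116 and at 1.59, 1.63 and 0.741 CPM in younger tumors (edgeR log2 fold change 2.53 with SE 0.55, adjusted p = 0.271). Clec9a, a receptor for dead cells on the same subset, was at 38.9 and 30.7 CPM in tumors 102 and 107, at 3 CPM in tumor 116 and at 2.65, 0.905 and 5.68 CPM in younger tumors. Xcr1, its chemokine receptor, was at 29.1 CPM in tumor 107 and at 1.06 CPM or less elsewhere. Lamp3, of mature dendritic cells, had 0 counts, and Siglech, of plasmacytoid dendritic cells, was at 1.40 CPM or less in every tumor. The part of these cells in the level of Itgax (51.0 and 114 CPM in tumors 102 and 107) was not tested.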
